A study of Oryza sativa with 25 samples.

Results

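The jasmonate pathway was followed across rice callus and organs through 6 genes. They are AOS1, an enzyme of jasmonate synthesis, OsJAZ13, OsTIFY11a, OsTIFY11b and OsTIFY11c, which encode JAZ repressors, and BHLH148, a basic helix-loop-helix transcription factor. The members were the probe sets that the array annotation assigns to a single gene carrying one of these symbols or synonyms. This gave 7 probe sets for 6 genes, out of 17905 genes with a probe set of their own, and all 7 passed the filter on low values. The genes were chosen by their intensities in these arrays, which earlier results showed to be low in callus and high in the organs, so the levels given here are a description and carry no p-value. RNA from Oryza sativa was hybridized to 25 Affymetrix arrays in 8 groups. Callus was induced from seeds on MS medium for 3 weeks at 30 °C. It was then moved to regeneration medium and collected after 2, 4, 6 or 8 days (3 arrays each), while growing callus (3 arrays) has no day on that medium in its label. Shoots (3 arrays) were cut from plants after 4 weeks at 30 °C in a chamber, while young leaf (the blade of leaf 4, 4 arrays) and root (plants at the stage of leaf 4, 3 arrays) came from a greenhouse. The labels name no transgene or mutation for any group and call the arrays of a group biological replicates. They do not say whether these came from separate plants or culture plates, so the spread covers only these samples. No callus was kept off regeneration medium for the same number of days, so the medium, the transfer and the time cannot be told apart, and organ and growth place cannot be told apart for shoot. All callus was grown on medium and all organs came from plants, so tissue and growth conditions cannot be told apart between callus and organs.

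Jasmonates are lipid hormones of wounding, defence, stress and reproductive development. They are made from polyunsaturated fatty acids by lipoxygenase, allene oxide synthase and allene oxide cyclase in the plastid. Reduction by 12-oxophytodienoate reductase and beta-oxidation follow in the peroxisome, and JAR enzymes then join the hormone to isoleucine. The conjugate brings the receptor COI1 together with JAZ proteins, members of the TIFY family that hold transcription factors inactive, and the JAZ proteins are degraded. JAZ genes are themselves induced by jasmonate in many plants, so their transcripts serve as a readout of the response.

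The values are the deposited linear intensities, in which the 75th percentile of every array is 1. They can be compared between arrays for 1 probe set, but not between probe sets. The median intensity of an array was between 0.22 and 0.355. Log2 differences below were fitted with limma on quantile-normalized log2(intensity + 0.0274) over 37227 probe sets. A probe set counted as called when its Benjamini-Hochberg adjusted p was under 0.05 and its fold at least 2. Leaf markers OsrbcS, CAB2R and PETE averaged highest in young leaf (88.0, 134 and 145), and OSH1, a meristem gene, averaged 8.94 in shoot and at most 0.377 in the other groups. The root marker OsNAAT1 was lowest in root (0.515), and RCc2 and RCc3 had no match, so no marker here bore out the root label. In 3 groups 1 array held the highest value of all 7 member probe sets. These were replicate 2 of callus at 6 days, replicate 1 of young leaf and replicate 2 of shoot, which held the group's highest value for 26.7%, 43.0% and 43.3% of all tested probe sets. Results that rest on these arrays are given with and without them. Per the labels, too much poly(A) control RNA was present in 3 callus arrays, the replicates numbered 2 on days 2 and 4 and in growing callus.

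AOS1 (LOC4334233, chromosome 3) encodes allene oxide synthase, which turns the lipoxygenase product into an unstable allene oxide. Its intensity was 0.315, 0.339 and 0.329 in growing callus, 0.310, 0.371 and 0.373 on day 2, 0.265, 0.294 and 0.231 on day 4, 0.265, 0.297 and 0.213 on day 6, and 0.335, 0.291 and 0.292 on day 8. In shoot it was 23.9, 32.1 and 27.3, in young leaf 6.96, 4.13, 4.13 and 4.71, and in root 7.0, 9.09 and 13.1. The 15 callus arrays lay within 0.213 to 0.373 and all 10 organ arrays above 4. Shoot stood above root, and root above young leaf, with no overlap of arrays between neighbours in that order.

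OsJAZ13 (LOC4348531, chromosome 10), also listed as OsTIFY11e, encodes a JAZ repressor. Its intensity was 0.157, 0.150 and 0.172 in growing callus, 0.213, 0.267 and 0.165 on day 2, 0.137, 0.197 and 0.140 on day 4, 0.253, 2.16 and 0.309 on day 6, and 0.174, 0.247 and 0.207 on day 8. In shoot it was 24.5, 53.9 and 30.5, in young leaf 78.3, 51.7, 39.7 and 50.7, and in root 27.7, 30.4 and 26.4. Replicate 2 at 6 days stood apart from the other callus arrays, the next of which was at 0.309, yet lay 11.3-fold below the lowest organ array. Young leaf, shoot and root followed each other in that order of means, and each pair of neighbours overlapped.

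OsTIFY11a (LOC4331832, chromosome 3; synonym JAZ9) encodes a JAZ repressor that was dim in callus. Its intensity was 0.137, 0.174 and 0.288 in growing callus, 0.147, 0.201 and 0.0955 on day 2, 0.154, 0.123 and 0.0674 on day 4, 0.169, 0.469 and 0.110 on day 6, and 0.112, 0.163 and 0.164 on day 8. In shoot it was 14.7, 49.1 and 19.97, in young leaf 19.7, 7.15, 5.70 and 7.34, and in root 33.9, 47.0 and 39.3. The intensity of OsTIFY11a exceeded the median of the array in 2 of the 15 callus arrays, so it passed the filter only through the organs. OsJAZ13 exceeded the median in 3 callus arrays, AOS1 in 13 and the other members in all 15.

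OsTIFY11b (LOC4331834, chromosome 3; synonym JAZ10) had 2 probe sets. Probe set 2 has the suffix _s_at, a type that can also bind related transcripts, and probe set 1 has the suffix _at. Probe set 1 gave 0.381, 0.695 and 0.996 in growing callus, 0.812, 0.800 and 0.828 on day 2, 0.589, 0.550 and 0.413 on day 4, 0.805, 1.79 and 0.774 on day 6, and 0.467, 0.643 and 0.306 on day 8. In shoot it gave 23.5, 31.2 and 28.3, in young leaf 54.0, 36.1, 34.7 and 39.9, and in root 26.5, 30.1 and 40.2. Both probe sets put every callus array under every organ array. Probe set 2 ranged from 0.776 to 5.50 over the callus arrays and from 57.7 to 112 over the organ arrays. The order of the organs differed between the probe sets: young leaf, root, shoot for probe set 1 and root, young leaf, shoot for probe set 2, with overlap between all neighbours.

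OsTIFY11c (LOC4331833, chromosome 3; synonym JAZ11) was the exception among the members. Its intensity was 4.02, 6.94 and 14.1 in growing callus, 2.75, 3.61 and 3.33 on day 2, 1.92, 2.34 and 1.86 on day 4, 1.38, 2.24 and 0.973 on day 6, and 1.47, 1.79 and 1.77 on day 8. In shoot it was 22.5, 42.8 and 23.5, in young leaf 15.9, 8.63, 6.76 and 7.11, and in root 20.2, 29.2 and 36.8. Growing callus overlapped young leaf, with replicate 3 of growing callus above 3 of the 4 leaf arrays. Every array at 2, 4, 6 and 8 days lay below every array of growing callus and of the organs.

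BHLH148 (LOC4334060, chromosome 3) encodes a transcription factor that binds JAZ proteins in rice and is linked to drought tolerance. Its intensity was 0.325, 0.283 and 0.385 in growing callus, 0.524, 0.481 and 0.310 on day 2, 0.330, 0.366 and 0.375 on day 4, 0.443, 1.15 and 0.596 on day 6, and 0.334, 0.449 and 0.340 on day 8. In shoot it was 17.3, 26.0 and 21.7, in young leaf 56.3, 39.0, 48.7 and 40.3, and in root 57.1, 64.9 and 80.2. Root, young leaf and shoot followed each other in that order with no overlap, so shoot was the lowest organ for BHLH148 and the highest for AOS1.

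**Figure D1:**
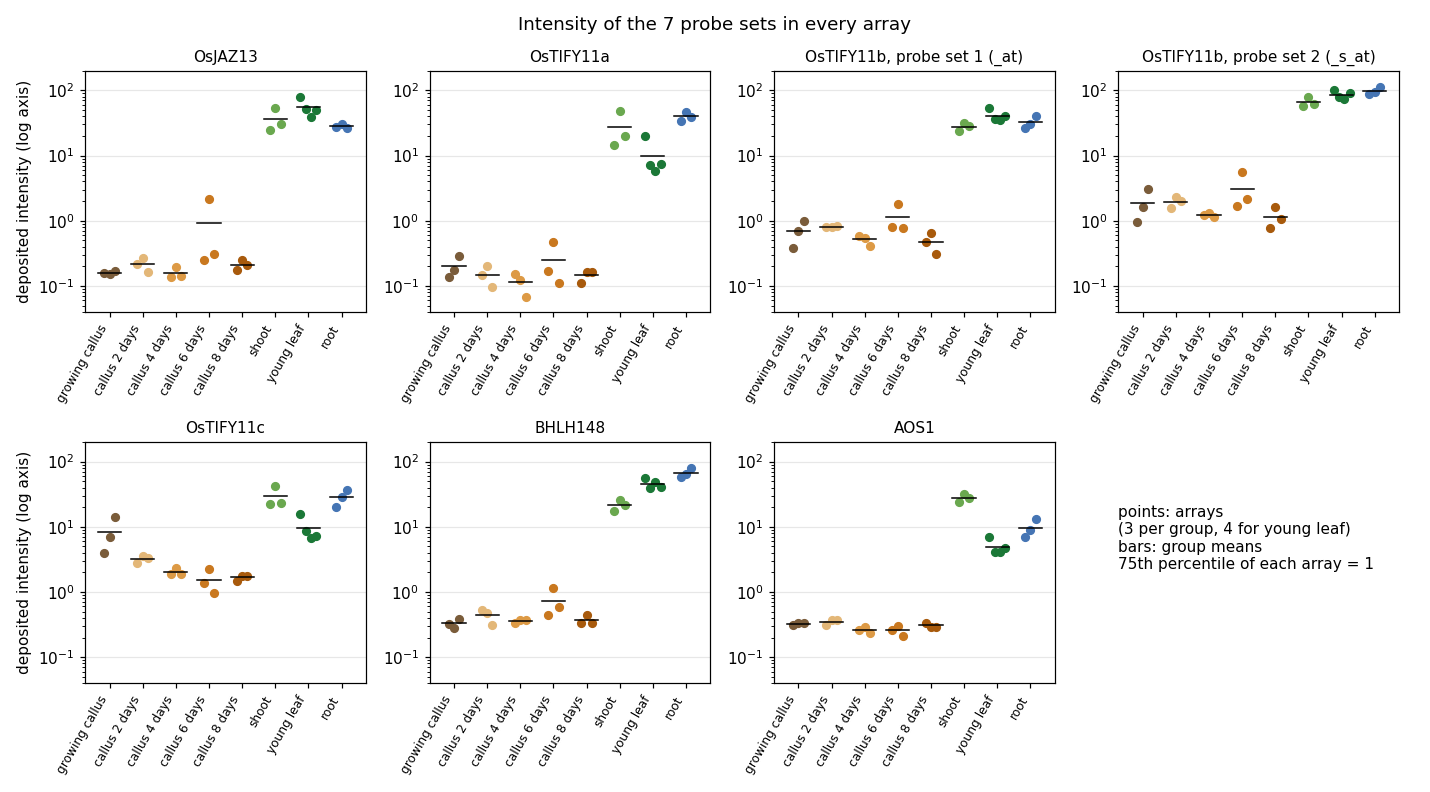
Deposited intensity (log axis) of the 7 probe sets in each of the 25 arrays, by group; points are arrays and bars are group means. In 6 of the 7 panels every callus point lies below every organ point; in the OsTIFY11c panel growing callus reaches 14.1 and overlaps young leaf.

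All 6 genes were lower in growing callus than in the mean of the 3 organs. Growing callus averaged 0.159 ± 0.011 for OsJAZ13 (SD, n = 3), against 36.3 ± 15.5 in shoot, 55.1 ± 16.4 in young leaf and 28.2 ± 2.04 in root (SD, n = 3, 4 and 3). The log2 differences were −7.74 (SE 0.374) for OsJAZ13, −6.85 (SE 0.207) for BHLH148, −6.63 (SE 0.362) for OsTIFY11a, −5.64 (SE 0.253) and −5.69 (SE 0.292) for the probe sets of OsTIFY11b, −4.96 (SE 0.162) for AOS1 and −1.48 (SE 0.300) for OsTIFY11c. The pseudocount limits these values where callus is dim: with a pseudocount of 50% of the median intensity (0.137) OsJAZ13 gave −7.05 and OsTIFY11a −6.01. All 7 member probe sets met the call rule as lower, a pattern they were picked for, where 27.0% of all tested probe sets were called, 13.6% as lower. In bulk tissue, fewer cells that express a gene and less RNA per cell cannot be told apart.

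The separation held over every stage of callus for 6 of the 7 member probe sets, those of all genes but OsTIFY11c. Their lowest organ array exceeded their highest callus array by between 10.5-fold (OsTIFY11b probe set 2) and 15.1-fold (BHLH148). Over all tested probe sets, 4.01% had every callus array below every organ array and 7.10% had every callus array above. The 3 genes OsTIFY11a, OsTIFY11c and OsTIFY11b are consecutive in the RefSeq annotation of assembly ASM3414082v1 on chromosome 3. None of the tested neighbours on either side (LOC4331831, and LOC4331835 to LOC4331837) had all callus arrays below all organ arrays. On chromosome 10, OsJAZ13 and OsTIFY11d, a further JAZ gene that showed the separation, have 3 annotated genes between them and none of those 3 has a probe set. The tested neighbours outside this pair (LOC4348528, OsSPX3 and LOC4348536) did not show the separation.

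During culture on regeneration medium OsTIFY11c was the only member that differed from growing callus by at least 2-fold at all 4 times. Its mean was 8.36 ± 5.20 in growing callus, 3.23 ± 0.440 on day 2, 2.04 ± 0.260 on day 4, 1.53 ± 0.647 on day 6 and 1.67 ± 0.181 on day 8 (SD, n = 3 each). The log2 differences from growing callus were −1.15 on day 2, −1.80 on day 4, −2.23 on day 6 and −2.04 on day 8 (SE 0.372 each). They met the call rule each time, and OsTIFY11c was the only one of the 7 member probe sets to do so at 2, 4 and 8 days. Of all tested probe sets 4.07% were called at 2 days (1.65% higher, 2.42% lower) and 5.21% at 4 days (2.13% higher, 3.08% lower). At 6 days 6.08% were called (3.72% higher, 2.36% lower) and at 8 days 7.85% (5.08% higher, 2.77% lower). The value at 2 days lay close to the limit of the rule and missed it in 18 of the 25 fits that leave out 1 array, among them that without replicate 3 of growing callus (−0.69). It also missed the rule with no filter on low values and without the 3 arrays with excess poly(A) controls. The 4-, 6- and 8-day values met the rule in all 25. Between 8 and 2 days the difference was −0.89 (SE 0.372), with no overlap of arrays, and no member met the rule in that comparison, in which 4.87% of probe sets were called (3.91% higher, 0.962% lower). The leaf markers moved over the same days: PETE averaged 6.52 on day 8, against 0.228 in growing callus, CAB2R 1.78 against 0.161 and OsrbcS 2.30 against 0.326. Their part in the OsTIFY11c values was not tested.

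**Figure D2:**
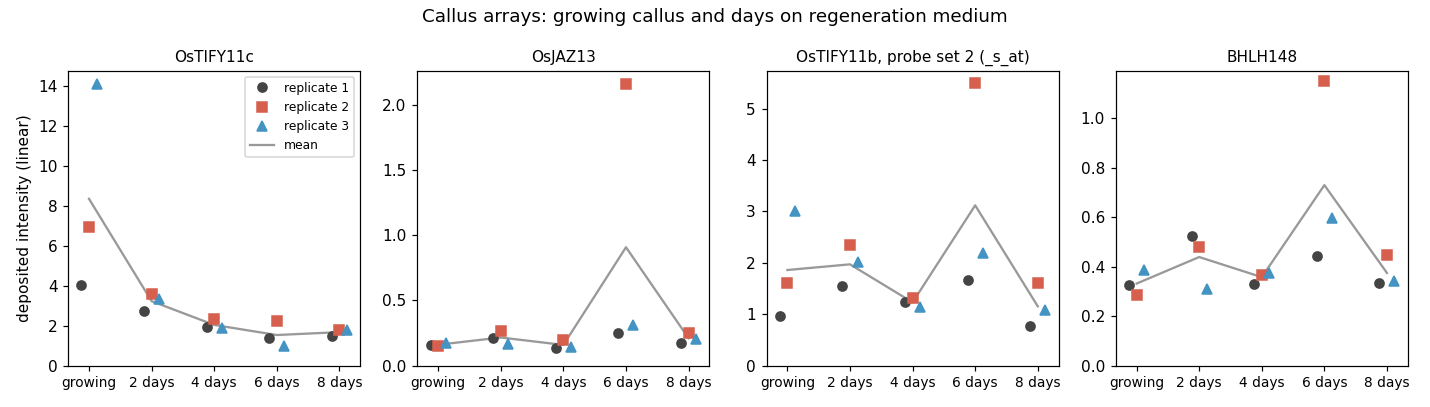
Deposited intensity (linear axes, separate scales) of 4 member probe sets in growing callus and after 2, 4, 6 and 8 days on regeneration medium; symbols are replicates 1 to 3 and the line joins group means. OsTIFY11c starts between 4.02 and 14.1 and stays under 4 from 2 days on, and replicate 2 at 6 days stands above the other arrays in the other 3 panels.

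At 6 days OsJAZ13 also met the call rule as higher, by 1.76 on the log2 scale (SE 0.463), where 3.72% of probe sets were called higher. Replicate 2 decided this value. Without that array the difference was 0.81 and missed the rule, which it also missed without the 3 arrays with excess poly(A) controls. The same array gave the group's highest value for BHLH148 (1.15, against 0.443 and 0.596 in the other 2 arrays), for OsTIFY11a (0.469, against 0.169 and 0.110) and for OsTIFY11b probe set 2 (5.50, against 1.67 and 2.19). It lay at least 2-fold above both other arrays at 195 of 37227 probe sets (0.524%), 4 of them member probe sets (OsJAZ13, OsTIFY11a and the pair for OsTIFY11b) and none from the other pathway genes. The other probe sets of named genes with the widest gaps belonged to MT-1-4b, a metallothionein gene (1.08, against 0.175 and 0.276), and MYB2, a stress-related MYB gene (2.04, against 0.507 and 0.661). What set this array apart was not tested.

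AOS1, OsTIFY11a, OsTIFY11b and BHLH148 met the call rule at no time in callus in the fit over all arrays. Their log2 differences from growing callus lay within −0.27 to 0.08 for AOS1 (SE 0.200), within −0.58 to 0.25 for OsTIFY11a (SE 0.449) and within 0.17 to 0.98 for BHLH148 (SE 0.256). For OsTIFY11b they lay within −0.43 to 0.66 for probe set 1 (SE 0.313) and within −0.55 to 0.76 for probe set 2 (SE 0.362). The highest value of the last 3 probe sets was again at 6 days, and without replicate 2 of that day it was 0.60 for BHLH148 and 0.26 and 0.22 for OsTIFY11b. BHLH148, at 0.98 just under 2-fold, met the rule in 3 of the 25 fits that leave out 1 array: those without replicate 3 of growing callus, without replicate 3 of 6 days and without replicate 1 of 6 days (1.28, the highest). OsTIFY11b probe set 2 met it in 1 of them, without replicate 3 of growing callus (1.18).

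The organs split the members into a group that was higher in shoot than in young leaf and a group that was not. AOS1 averaged 27.8 ± 4.09 in shoot and 4.98 ± 1.35 in young leaf (SD, n = 3 and 4), a log2 difference of 2.78 (SE 0.187). OsTIFY11c averaged 29.6 ± 11.5 in shoot and 9.59 ± 4.27 in young leaf, a log2 difference of 1.92 (SE 0.348). OsTIFY11a averaged 27.9 ± 18.5 in shoot and 9.97 ± 6.52 in young leaf, a log2 difference of 1.73 (SE 0.420), and its arrays overlapped. These 3 met the call rule as higher in shoot, where 16.5% of all tested probe sets were called higher. BHLH148 averaged 21.7 ± 4.37 in shoot and 46.1 ± 8.02 in young leaf, a log2 difference of −0.85 (SE 0.239) that did not meet the rule, but was −1.09 and met it on the deposited scaling. OsJAZ13 (−0.37, SE 0.433) and the probe sets of OsTIFY11b (−0.28 and −0.22) did not meet it.

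Shoot and root differed most for AOS1 and BHLH148, in opposite directions. AOS1 was higher in shoot than in root by 1.76 (SE 0.200), and BHLH148 was lower in shoot (log2 difference −1.49, SE 0.256). These 2 member probe sets of 7 met the rule, a share close to the 28.9% of all tested probe sets that were called (15.5% higher, 13.5% lower). The other 5 differed by no more than 0.57 in either direction. OsTIFY11a, at −0.57 (SE 0.449), gave −1.08 and met the rule without replicate 2 of shoot (49.1, against 14.7 and 19.97 in the other arrays).

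Young leaf was lower than root for OsTIFY11a (9.97 ± 6.52 against 40.1 ± 6.63, log2 difference −2.30, SE 0.420) and for OsTIFY11c (9.59 ± 4.27 against 28.7 ± 8.33, −1.70, SE 0.348). AOS1 averaged 4.98 ± 1.35 in young leaf and 9.72 ± 3.09 in root, a log2 difference of −1.01 (SE 0.187) at the edge of the rule. It missed the rule in 4 of the 25 fits that leave out 1 array and in 4 of the 7 other alternatives. With it, 3 member probe sets met the rule as lower in young leaf, where 16.5% of probe sets were called lower. BHLH148 (−0.65, SE 0.239), OsJAZ13 (0.85, SE 0.433) and OsTIFY11b (0.28 and −0.28) did not meet it. Quantile normalization bears on all organ comparisons. On the deposited scaling the median log2 difference of all tested probe sets moved by −0.18 for young leaf against root, −0.29 for shoot against root and −0.13 for shoot against young leaf, and no member difference that met the rule changed its sign.

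**Figure D3:**
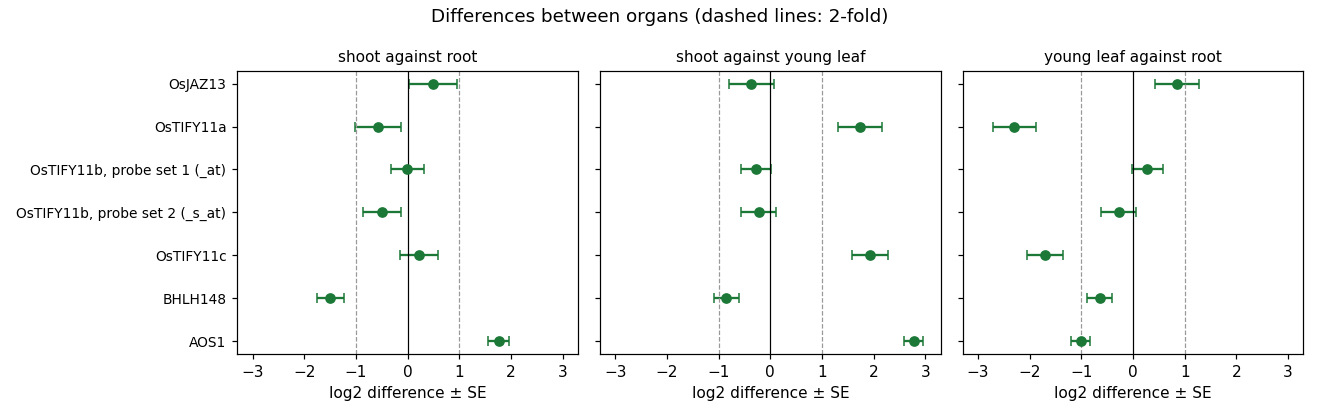
Log2 differences with their SE for the 7 probe sets in shoot against root, shoot against young leaf and young leaf against root; dashed lines mark 2-fold. AOS1, OsTIFY11a and OsTIFY11c lie right of 2-fold in shoot against young leaf (2.78, 1.73 and 1.92), and BHLH148 lies left of it in shoot against root (−1.49).

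The arrays of callus and of organs form separate clusters, so correlations between members were taken within each, as a description. All arrays share 1 scaling and normalization. Over the 15 callus arrays OsJAZ13 and BHLH148 had Pearson r = 0.93, and 0.81 without replicate 2 of 6 days; over the 10 organ arrays r was −0.09. That array decided other callus values: OsJAZ13 and OsTIFY11a had r = 0.72 over the callus arrays, and 0.16 without it. Over the organ arrays OsTIFY11a and OsTIFY11c, which neighbour each other, had r = 0.93, and 0.92 without replicate 1 of young leaf and replicate 2 of shoot. OsTIFY11c and AOS1 had r = 0.84 over the organ arrays, and 0.80 without those 2 arrays, while BHLH148 and AOS1 had r = −0.50, and −0.43 without them. The 2 probe sets of OsTIFY11b had r = 0.92 over callus and 0.58 over organs. The values without these arrays were added after the data were seen.

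By the highest Pearson correlation over all 25 arrays, which mostly reflects the step between callus and organs, Lsi6, a silicon transporter gene, was most like OsJAZ13 (r = 0.988; 0.71 within callus and 0.80 within organs). For OsTIFY11b, OsWRKY71 came first (r = 0.972) and the JAZ gene OsTIFY6b next (0.972). RH2 was most like OsTIFY11a (r = 0.981), with OsTIFY6b next (0.980). For OsTIFY11c the first gene was OsC3H50 (r = 0.947; 0.86 within callus and 0.83 within organs) and the next OsTIFY10b, another JAZ gene (0.937; 0.85 and 0.78). FDRMADS7 was most like BHLH148 (r = 0.989; 0.41 and 0.79), and MAPK6 was most like AOS1 (r = 0.980; 0.09 and 0.88). CIGR1 was among the 3 nearest genes of OsJAZ13 (0.976), OsTIFY11b (0.968) and BHLH148 (0.982). Within callus the likeness of MAPK6 to AOS1 and of RH2 to OsTIFY11a (0.11) was near 0.

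A list of 33 further pathway genes put the members in context. It was matched by symbol, 32 of the genes were tested, and OsOPR12 was below the filter. Growing callus against the mean of the organs gave 14 of 32 called lower and 2 called higher, where 13.6% and 13.3% of all tested probe sets were called. The median log2 difference of the list was −0.91, against 0.02 over all tested probe sets. The lower genes of smallest adjusted p were OsJAR1, the enzyme that forms jasmonoyl-isoleucine (log2 −2.90, SE 0.148, adjusted p = 1.29e-13), OsTIFY10a (−3.26, SE 0.196, adjusted p = 2e-12) and OsTIFY11d (−3.67, SE 0.244, adjusted p = 1.03e-11). OsJAR1 averaged 0.467 ± 0.135 in growing callus, against 4.50 ± 0.687 in shoot, 3.61 ± 0.270 in young leaf and 2.81 ± 0.371 in root. MFP, a beta-oxidation enzyme, was higher in growing callus (1.17, adjusted p = 9.7e-08), as was OsOPR1, a reductase outside the branch known to serve jasmonate synthesis (1.10, adjusted p = 0.0299), whose call was lost in 4 of the 25 fits that leave out 1 array, among them that without replicate 3 of growing callus (0.78).

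The lower calls lay mostly among the repressors. Of 9 other JAZ genes 8 were called lower in growing callus than in the mean of the organs. The median was −1.85, and OsTIFY5 was not called. For OsTIFY6a and OsTIFY10c the difference rested mainly on shoot. OsTIFY6a averaged 2.87 in growing callus, against 23.2 in shoot, 2.28 in young leaf and 3.37 in root. OsTIFY10c averaged 4.01 in growing callus, against 31.6 in shoot, 5.95 in young leaf and 2.19 in root. On the deposited scaling OsTIFY6a (−0.98) and OsTIFY10c (−0.89) fell short of 2-fold. All callus arrays lay below all organ arrays for 5 of these 9 (OsTIFY10a, OsTIFY10b, OsTIFY11d, OsTIFY6b and OsTIFY9) and for 3 of the 23 other genes (LOX5, OsOPR7 and OsJAR1), where 4.01% of all probe sets did so. In growing callus against the mean of the organs, none of the 3 COI receptor genes reached the 2-fold limit of the call rule. Nor did the 3 other genes named as allene oxide synthases. OsCOI1a came closest among the receptors (−0.98, SE 0.107, adjusted p = 3.69e-08). OsCOI1b (0.44, adjusted p = 0.0262) and COI2 (0.31, adjusted p = 0.0111) lay above that mean, but COI2 averaged 6.74 in growing callus and 7.52 in young leaf. The genes named as synthases all lay below that mean, with log2 differences of −0.95 for AOS4, −0.54 for AOS2 (adjusted p = 0.0108) and −0.26 for AOS3. AOS3 and AOS4 passed the filter only through root, so no p-value is given for them. AOS3 averaged 0.166 in growing callus, against 0.1025 in shoot, 0.146 in young leaf and 0.546 in root. OsCOI1a averaged 4.16 ± 0.127 in growing callus, against 10.8 ± 1.06 in shoot, 5.67 ± 0.726 in young leaf and 8.02 ± 1.09 in root. The receptor gene OsCOI1b averaged 11.8 ± 2.19 in growing callus, against 8.24 ± 0.598 in shoot, 10.1 ± 2.71 in young leaf and 6.72 ± 1.20 in root. AOS4 averaged 0.228 ± 0.0407 in growing callus, against 0.202 ± 0.0311 in shoot, 0.212 ± 0.0352 in young leaf and 2.03 ± 1.05 in root.

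**Figure D4:**
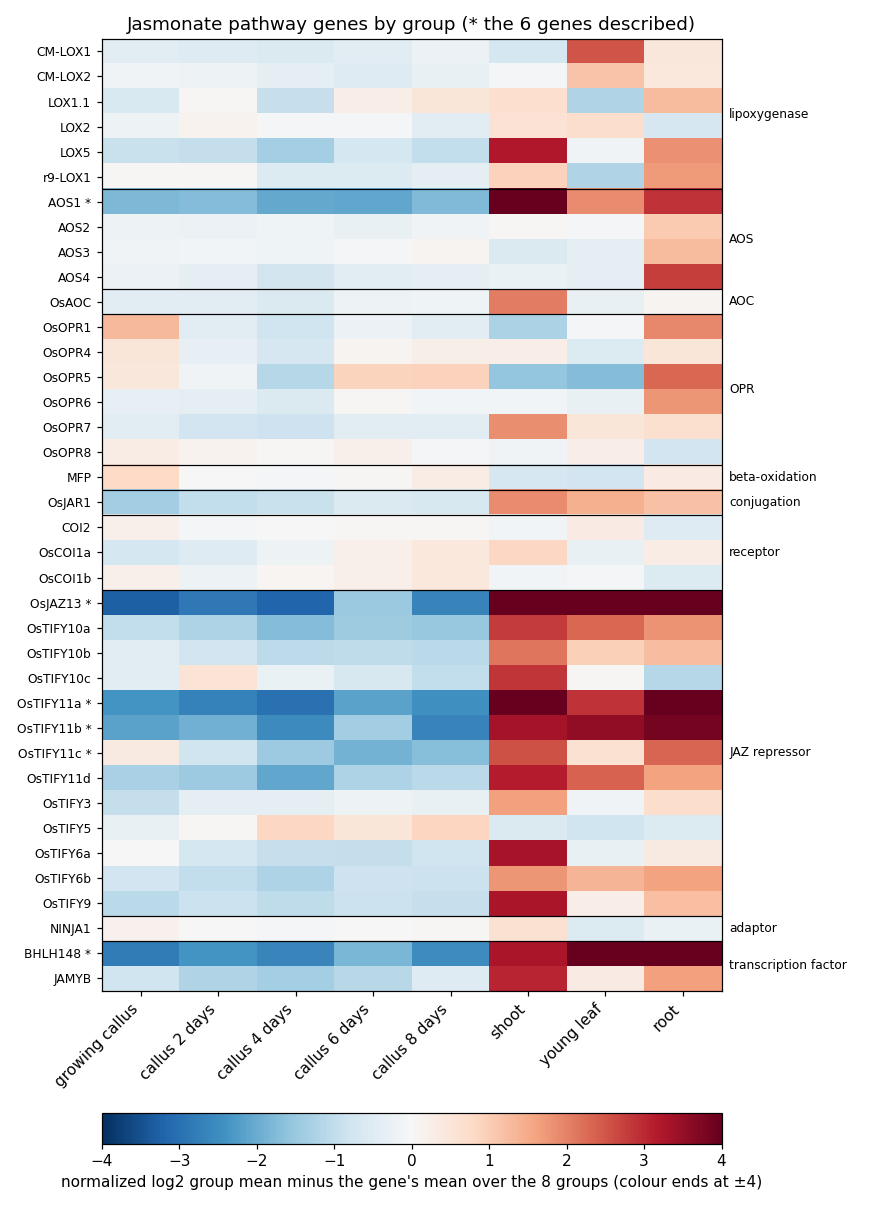
Normalized log2 group means minus the gene's mean over the 8 groups, for the 6 members (asterisks) and the 32 other tested pathway genes, ordered by role. The members other than OsTIFY11c are blue in all 5 callus columns and red in the 3 organ columns, as are OsTIFY10a, OsTIFY11d and OsJAR1, while the 3 receptor genes are paler throughout.

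Among the organs, 5 of the 9 other JAZ genes were called higher in shoot than in young leaf and 5 higher in shoot than in root, and none was called lower in shoot. A second probe set of OsTIFY6b that was not counted was called lower in shoot than in young leaf (−1.03), where the counted one gave 0.41. On the deposited scaling OsTIFY10a (0.82 in shoot against root) fell short of 2-fold. Shoot against young leaf gave 13 of 32 called higher and 3 called lower (background 16.5% and 15.0%). OsTIFY6a (3.57, adjusted p = 7.62e-15), the lipoxygenase gene LOX5 (3.35, adjusted p = 1.68e-11) and OsTIFY9 (3.01, adjusted p = 4.03e-10) led the higher calls. CM-LOX1 (−3.24), CM-LOX2 (−1.21, adjusted p = 0.000811) and OsOPR1 (−1.18, adjusted p = 0.0465) were the lower ones. CM-LOX1 exceeded the median of the array only in young leaf and in replicate 2 of root. It passed the filter only through young leaf, so no p-value is given for it. The OsOPR1 call held in 12 of the 25 fits that leave out 1 array. LOX5 averaged 36.2 ± 13.3 in shoot, 4.32 ± 1.64 in young leaf and 16.2 ± 4.18 in root. OsAOC, the only allene oxide cyclase gene on the list, averaged 78.9 ± 9.20 in shoot, against 18.1 ± 3.06 in young leaf and 23.0 ± 3.73 in root, and was called higher in shoot in both comparisons (log2 2.35 and 1.94).

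Shoot against root gave 10 called higher and 6 called lower of 32 (background 15.5% and 13.5%), and 9 and 8 on the deposited scaling. Over all tested probe sets the share of calls that were higher was 53.5%, and 41.8% on the deposited scaling. OsTIFY6a (2.94, adjusted p = 2.2e-12), OsTIFY10c (3.99, adjusted p = 4.22e-10) and LOX2 (1.26, adjusted p = 3.57e-09) led the higher calls. AOS3 (−1.82), AOS4 (−3.03) and OsOPR6 (−1.87, adjusted p = 1.41e-06) led the lower ones. AOS3 exceeded the median of the array only in root, and AOS4 only in root and in replicate 2 of callus at 2 days. Both passed the filter only through root, so no p-value is given for them, though they remain in the counts of calls. Young leaf against root gave 4 called higher and 12 called lower (background 15.5% and 16.5%), led by LOX2 (1.39), OsOPR8 (1.02) and CM-LOX1 (2.08) as higher and AOS3 (−1.60), AOS4 (−3.16) and OsOPR6 (−2.07) as lower. The 3 genes other than AOS1 that are named as allene oxide synthases were called lower in young leaf than in root. Of these, AOS3 and AOS4 were also called lower in shoot than in root, whereas AOS1 was highest in shoot. The role was assigned by name, and the activity of the enzymes was not tested.

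Within callus 0 to 4 of the 32 other pathway genes were called per comparison. Their called share lay above that of all tested probe sets at 4 days (9.38%) and 8 days, and below it in the other comparisons. All 3 calls at 4 days fell among the 6 tested 12-oxophytodienoate reductase genes, a role assigned by name. OsOPR7 of that family gave −0.40 there and was not called. Which of these genes serve jasmonate synthesis was not tested. Of all tested probe sets, 4.07% were called at 2 days, 5.21% at 4 days and 6.08% at 6 days. At 8 days 7.85% were called (5.08% higher, 2.77% lower), and between 8 and 2 days 4.87% (0.962% lower). At 2 days only OsOPR1 was called (−1.70, SE 0.529, adjusted p = 0.0394), and at 4 days OsOPR1 (−2.09, adjusted p = 0.00898), OsOPR4 (−1.15, adjusted p = 0.0292) and OsOPR5 (−1.61, adjusted p = 0.0485) were called lower, where 2.42% and 3.08% of all probe sets were. A second probe set of OsOPR5 gave −0.11 and was not called, and no call at 2 or 4 days remained without replicate 3 of growing callus. At 6 days limma called none of the 32, with 4 higher and 4 lower at an unadjusted p under 0.05. At 8 days OsCOI1a, a jasmonate receptor gene, was called higher (1.13, SE 0.132, adjusted p = 1.87e-06; 8.46 ± 1.05 at 8 days, against 4.16 ± 0.127 in growing callus), as were LOX1.1 (1.10, adjusted p = 0.0146) and OsTIFY5 (1.14, adjusted p = 0.0429; 0.250 ± 0.167 against 0.111 ± 0.0441), with OsOPR1 lower (−1.71, adjusted p = 0.0229). The OsCOI1a call held in all 25 fits that leave out 1 array, whereas LOX1.1, OsTIFY5 and OsOPR1 were each lost in at least 2 of them. Between 8 and 2 days OsTIFY10c was called lower (−1.52, SE 0.327, adjusted p = 0.00286), at 2.53 ± 0.652 against 7.71 ± 2.41.

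**Figure D5:**
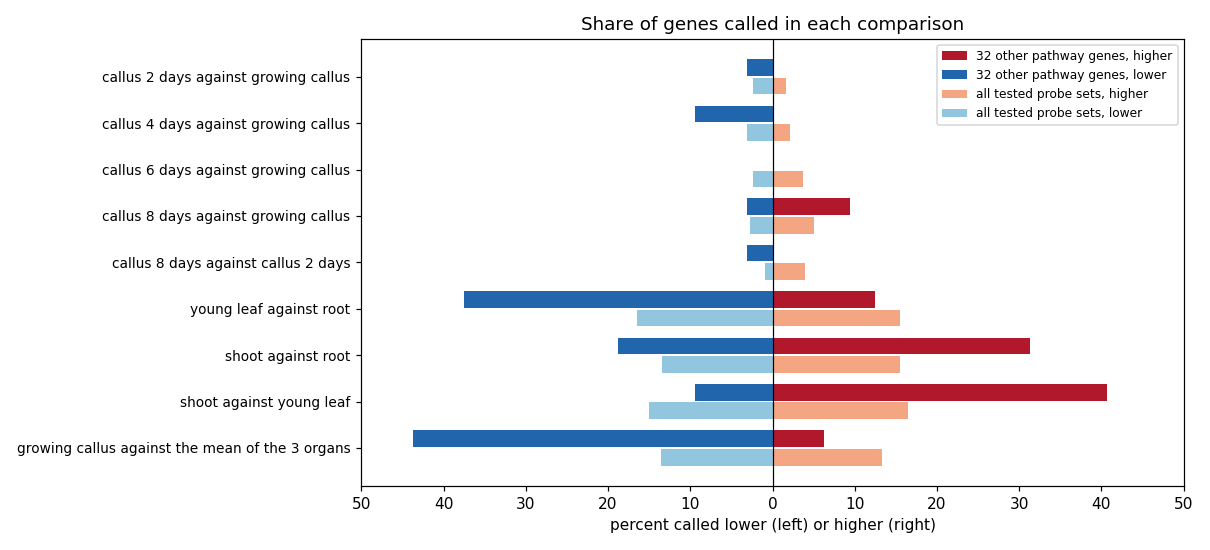
Percent of the 32 other pathway genes (dark bars) and of all 37227 tested probe sets (pale bars) called lower (left) or higher (right) in the 9 comparisons. The longest dark bars are the 14 of 32 lower in growing callus against the organs and the 13 of 32 higher in shoot against young leaf.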

How the data were processed

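RNA (500 ng per labelling, per the labels) was hybridized to 25 one-colour arrays. The authors deposited 1 linear intensity per probe set and array; per the submitters' processing notes GCOS 1.3 was used, and how background was removed and probes were summarized is not given in the sources used here. In the deposited intensity the 75th percentile of each array is 1. The number of arrays limits the precision. Of 57258 probe sets without controls, 37227 exceeded the median of the array in 3 or more arrays and were kept, and log2(intensity + 0.0274), 10% of the median as pseudocount, was quantile normalized in R 4.3.3. One limma 3.58.1 fit over all 25 arrays with 8 group means (17 residual degrees of freedom) served the 9 comparisons, with Benjamini-Hochberg adjustment over all tested probe sets within a comparison. On simulated data for callus at 8 days against growing callus (37227 probe sets), 65% of changes of 1 and 100% of changes of 2 on the log2 scale were recovered, with 8 false calls. Recovery and false calls were counted at an adjusted p under 0.05 alone, without the fold limit of the call rule.

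The members and gene lists were chosen with earlier results of these data known. Genes came from the platform annotation, names from RefSeq. A gene with several probe sets was counted by the one of highest mean. Named were all members and, of the other pathway genes, at most 3 called in each direction by smallest adjusted p and 1 per role by highest mean; for likeness, the 3 named genes of highest correlation. Names outside this rule (the genes whose callus and organ arrays did not overlap, those listed with a count, those of replicate 2 at 6 days) were chosen after their values were seen. Alternatives changed the pseudocount, the scaling, the filter, the array weights, the prior variance and the arrays used, or added the replicate number as a block. Deviations of same-numbered arrays correlated above 0.1 in every pair only between callus at 4 days and growing callus (0.210, 0.189 and 0.124). The labels give no pairing there beyond the replicate number, and the main fit used none. All callus groups hold the same replicate numbers, so the block cannot change a difference between them, such as that of OsTIFY11c (−1.80). It can change the SE, and the 3 pathway calls at 4 days remained with it.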

Additional observations from a re-analysis of the deposited data

Results flagged for a closer look

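Among the 4 young leaf arrays, 39 member and other pathway probe sets were examined for 1 array far from the others with Dixon's test, and 9 stood out. Chance gives about 1 in 20 for independent probe sets, but these share the same 4 arrays. The share over all tested probe sets was not taken. In 6 of the 9, replicate 1 was the high array. That array held the group's highest deposited value for 43.0% of all tested probe sets. OsTIFY11a had 19.7 there, with the next array at 7.34, and its differences from shoot and root without that array lie within the ranges given for the processing. LOX5 had 6.76 (next 3.79), OsAOC 22.6 (next 17.1), OsOPR7 9.29 (next 5.75), OsTIFY9 1.07 (next 0.496) and JAMYB 1.21 (next 0.385). Replicate 1 was low for OsCOI1a, at 4.59 with the next array at 5.89. OsOPR4 had 6.87 in replicate 4 (next 3.79), and AOS4 had 0.159 in replicate 3 (next 0.224).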

How the results depend on the processing

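Of 63 member differences, refitted under 32 alternatives each, none that met the call rule reversed its sign and 7 refitted values moved by more than the spread between replicates. Over the fits without 1 array OsTIFY11a ranged from −2.70 to −2.11 in young leaf against root and from 1.22 to 2.13 in shoot against young leaf. Of 73 calls of other pathway genes, 49 held under every alternative that tested them and 24 were lost under at least 1; none changed direction. At 2 days the 1 pathway call became 0 without the 3 arrays with excess poly(A) controls, and 0 to 1 over the fits without 1 array. At 4 days the 3 calls ranged from 0 to 4. At 6 days the 0 calls became 1 with the larger pseudocount, 2 on the deposited scaling, 1 with the replicate block, 1 with array weights and 2 without the poly(A) arrays, and ranged from 0 to 2. At 8 days the 4 calls became 2 with the larger pseudocount, on the deposited scaling and without the poly(A) arrays, and ranged from 2 to 4. Between 8 and 2 days the 1 call became 3 with array weights and 2 without the poly(A) arrays, and ranged from 1 to 2; all probe sets called there ranged from 1203 (without replicate 1 of 8 days) to 2614 (without replicate 2), around 1812. The 4 comparisons with organs, each with 16 calls, ranged from 13 to 18. The cause of these moves was not tested. In every comparison the labels pair the samples by no more than a replicate number. With the replicate block, OsTIFY11c at 2 days (−1.15) and AOS1 in young leaf against root (−0.98) no longer met the rule. Shoot against young leaf then gave 14 pathway genes higher and 1 lower. Dim probe sets limit the folds: OsJAZ13 and OsTIFY11a lay under the array median in 12 and 13 callus arrays.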
